A study of Mus musculus with 8 samples.

Results

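Synaptotagmins are vesicle and membrane proteins that carry a tandem of C2 domains, and 10 of them were examined in the cortex of mice on a normal diet and of mice on a high fat diet (HFD). They were taken by gene name (Syt1, Syt2, Syt3, Syt4, Syt5, Syt6, Syt7, Syt11, Syt12 and Syt17), and make up 10 of 13996 genes and 10 of the 15 numbered synaptotagmins with values. The mice were male C57BL/6 animals with no engineered allele in their labels, obtained at 8 weeks of age. For the next 8 weeks 4 mice received a conventional diet and 4 mice a diet enriched with fat, and the cortexes were collected at 16 weeks. One library of rRNA-depleted total RNA was made per mouse, so each value is that of 1 animal. Levels are given as FPKM, a fragment count divided by transcript length and by the mapped fragments of the library, so genes of different length can be compared but the read depth of a value is unknown.

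In neurons, a calcium influx triggers the fusion of synaptic vesicles, and synaptotagmins with calcium-binding C2 domains are the sensors that couple the 2 events. Syt1, Syt2 and Syt9 serve fast synchronous release, Syt7 binds calcium with high affinity and serves slower release and facilitation, and several other members do not bind calcium through their first C2 domain (C2A) at all. Calcium is held by aspartates in the loops at the tip of each domain.

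The coding stretch of the third calcium-binding loop of C2A is shown because it aligned to Syt1 without a gap in every member. Other loops were not compared, so a full set below means aspartate codons at the 3 positions marked here. The stretch spans 27 bases and lies within 1 coding exon in each gene shown. The sequences were read from the GENCODE M21 transcripts on GRCm38, 5′ to 3′ on the coding strand. Capitals mark the 3 codons aligned to the aspartate codons of Syt1.
Syt1: GATtttGACcgcttctccaagcacGAC
Syt2: GACtttGACcgcttctctaagcatGAC
Syt3: GACttcGACcgcttctcgcggcatGAT
Syt5: GACtttGATcggttctcccgcaacGAT
Syt6: GACtttGACcgcttctcccgccatGAC
Syt7: GATtatGACcgtttcagccgcaatGAC
Syt11: AGCtttGATcgattctctcgggatGAC
Syt12: GGTatcGACgaggatgagcggaatGTG
Syt17: GATtttGACaaattctcccgccacTGT
All 3 codons were aspartate codons in Syt1, Syt2, Syt3, Syt5, Syt6 and Syt7. In Syt11 and in Syt4, whose stretch is not shown, the first codon was a serine codon, and in Syt17 the third was a cysteine codon, which left 2 of 3. Syt12 had 1 of 3, with a glycine codon and a valine codon at the other positions. Of the 6 members with 3 of 3, Syt5, Syt6 and Syt7 passed the threshold used below and Syt1, Syt2 and Syt3 did not. Without a full set, Syt12 and Syt17 passed and Syt4 and Syt11 did not. Of all genes 33.1% passed, and a relation of the codons to the diet differences was not tested. The stretches lie at chr3:103587675-103587701 on the plus strand for Syt6 and at chr19:10442878-10442904 on the plus strand for Syt7.

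Markers of other brain regions and cell types differed between mice and between diets, and their values touch several results. Cerebellum markers (8 of 11 with values, 7 tested, 4 lower in HFD and none higher) summed to 26.2, 257.1, 354.9 and 84.6 FPKM in normal mice 1 to 4 and to 23.1 to 27.4 FPKM in the HFD mice, with Gabra6 at 0 in 1 HFD mouse. Thalamus markers (9 with values, 8 tested, 2 lower) summed to 37.6 to 122.6 against 34.2 to 37.4 FPKM, with normal mice 2 and 3 the highest and Shox2 at 0 in 1 HFD mouse. Striatum markers were lower in HFD for 11 of 11 tested genes, with sums of 256.4 to 470.6 against 83.7 to 92.3 FPKM. Choroid plexus markers (2 of 5 lower) summed to 344.8 to 730 FPKM in the normal mice and to 22.8 to 79 FPKM in HFD mice 1 to 3, but to 948 FPKM in HFD mouse 4. Oligodendrocyte markers fell in 6 of 6, at 2019 to 3339 against 1396 to 1937 FPKM. Markers of cortical projection neurons rose in 5 of 6, at 264.5 to 401.9 against 434.7 to 517.5 FPKM, and none of them was at 0 in any mouse of this cortex series. The pan-neuronal list overlapped between the diets, at 1252 to 1280 against 1240 to 1319 FPKM, with 1 of 8 genes higher and 1 lower. The mean log2 levels of the cerebellum, thalamus and striatum markers were each used as a covariate below, and the part of the oligodendrocyte and choroid plexus differences was not tested. Each of these covariates was higher in every normal mouse than in any HFD mouse. A fit with any of them therefore cannot fully separate the marker level from the diet. In bulk tissue fewer cells of a type and less RNA per cell cannot be told apart.

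Syt1 was the most abundant member on the FPKM scale and Syt6 the least abundant. Syt1 had a mean level of 326.5 FPKM in normal mice and ranked 118 of 13996 genes by its mean over all mice, whereas Syt6 had 7.73 FPKM and ranked 9149. In normal mice Syt1 was followed by Syt11 (154.2 FPKM), Syt4 (64.8 FPKM), Syt7 (52.8 FPKM) and Syt5 (50.8 FPKM). The ranges of Syt7 and Syt5 overlapped, while each of the earlier steps separated all mice. Syt3, Syt2, Syt12 and Syt17 followed at 19.5, 18.7, 15.3 and 13.5 FPKM, and each neighbouring pair of these overlapped. In HFD mice the order began with Syt1 and Syt11 again, but Syt7 (74.3 FPKM) stood before Syt4 (68.5 FPKM) and Syt5 (67.1 FPKM), with overlap between neighbours in both cases. Syt17 stood before Syt2 with no overlap, and Syt6 remained last, below every value of Syt12.

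**Figure D1:**
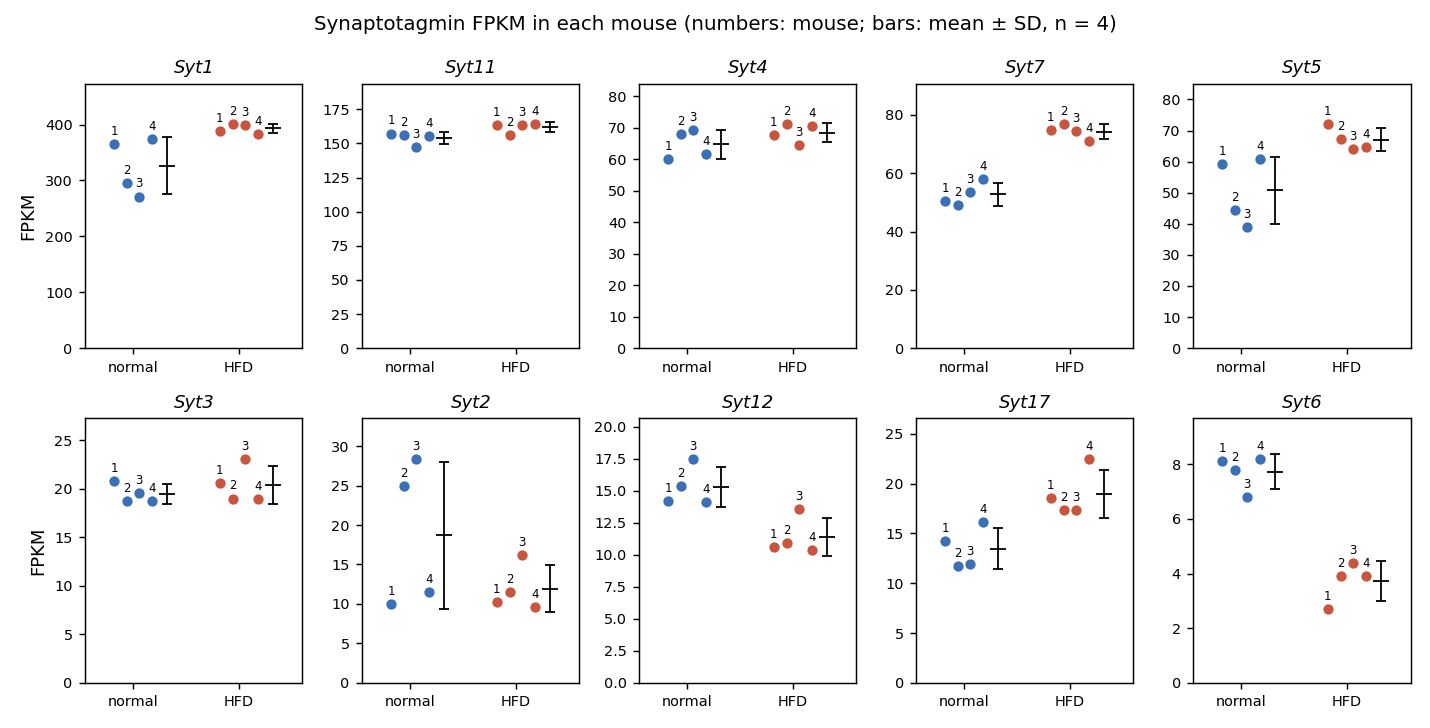
FPKM of each synaptotagmin in each mouse, on a separate axis for each gene, with a point for every mouse of the normal diet and of HFD and a bar for the mean and SD of each diet (n = 4). The diets do not overlap for Syt1, Syt5, Syt6, Syt7, Syt12 and Syt17, and Syt2 has a pair of high normal mice.

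To find which members differed between the diets, log2(FPKM + 0.1) was compared with limma over 13982 genes with a mean of at least 1 FPKM and no 0, and all 10 members passed this filter. Fold changes below are HFD minus normal on that scale, with Benjamini-Hochberg adjusted p-values from limma. An adjusted p below 0.05 was reached by 5 of 10 members, against 33.1% of all genes. Syt5, Syt7 and Syt17 were higher in HFD, 3 of 10 against 17.7% of all genes, and Syt6 and Syt12 were lower, 2 of 10 against 15.3%. Only Syt6 among the 10 also changed more than 1.5-fold, against 7.13% of all genes. The values of the diets did not overlap in 6 of 10 members, against 31.9% of all genes. The median log2 fold change was 0.08 over the members and 0.0031 over all genes tested. With 10 genes, these shares describe the members and set them apart from no other list.

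Syt6 fell in HFD mice to less than its level in any normal mouse. Its protein belongs to a subclass with Syt3 and Syt10 that forms disulfide-linked dimers, and it is known from the acrosome reaction of sperm and from deep cortical neurons. Syt6 (ENSMUSG00000027849.18) lies at chr3:103575231-103645569 on the plus strand. Its level was 8.1, 7.8, 6.8 and 8.2 FPKM in the normal mice and 2.7, 3.9, 4.4 and 3.9 FPKM in the HFD mice. The lowest normal mouse was above the highest HFD mouse, and HFD mouse 1 was the lowest of all. The mean was 7.73 ± 0.640 FPKM in normal mice and 3.73 ± 0.723 FPKM in HFD mice (SD, n = 4), 2.07 times higher on the normal diet, and the log2 fold change was -1.05 with an SE of 0.14 (limma, adjusted p = 0.00112). Layer 6 markers had 3 of 7 genes higher and 1 lower in HFD, with sums of 82.4 to 101.2 against 101.8 to 126.5 FPKM. Layer 5 markers had 3 of 5 genes higher and none lower, with sums of 44.2 to 47.7 against 62.2 to 73.6 FPKM. Of all genes, 17.7% were higher and 15.3% lower. The striatum, oligodendrocyte, cerebellum, thalamus and choroid plexus lists held genes lower in HFD, as given above. Genes were also lower among markers of parvalbumin interneurons (3 of 6, 1 higher), astrocytes (2 of 6, 1 higher) and endothelium (2 of 5, none higher). Striatum marker sums do not overlap between the diets, and were 470.6, 384.1, 364.3 and 256.4 FPKM in normal mice 1 to 4. With the striatum markers as a covariate neither Syt6 nor any other gene passed, as described below. The source of the Syt6 difference was not tested.

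Across the 8 mice, Ppp2r3c, Bok and Eapp were taken as the genes with the highest correlation with Syt6 among all 13982 tested, with Pearson's r of log2(FPKM + 0.1) of 0.988, 0.976 and 0.974. High values are fixed by this choice, and the points share the difference between the diets. The r of the deviations from the diet means was 0.899, 0.799 and 0.787. Bok, a member of the Bcl-2 family, had 25.7, 23.6, 21.6 and 28.4 FPKM in the normal mice and 10.4, 12, 15.4 and 11.3 FPKM in the HFD mice. The diets did not overlap. Ppp2r3c, a regulatory subunit of a phosphatase, had 3.6 to 3.7 FPKM on the normal diet and 2.9 to 3.2 FPKM on HFD, steps near the rounding of 0.1 FPKM.

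Syt7 rose in HFD mice, and its normal mice were more alike than those of Syt1 or Syt5. Syt7 (ENSMUSG00000024743.15) lies at chr19:10389090-10453180 on the plus strand. Its level was 50.5, 49.2, 53.4 and 58.1 FPKM in the normal mice and 74.7, 76.9, 74.5 and 70.9 FPKM in the HFD mice. All HFD mice were above all normal mice. The mean rose from 52.8 ± 3.95 to 74.3 ± 2.48 FPKM (SD, n = 4), 1.41 times higher on HFD, with a log2 fold change of 0.49 and an SE of 0.06 (limma, adjusted p = 0.000775), short of the 1.5-fold change. Its share of the summed FPKM of the 10 members was 7.31% ± 0.582 in normal mice and 8.93% ± 0.232 in HFD mice (SD, n = 4). For Syt6 this share was 1.07% ± 0.044 and 0.448% ± 0.0851.

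The sensors of fast release differed among the normal mice as much as between the diets. Syt1 (ENSMUSG00000035864.14, chr10:108497650-109010982, minus strand), the main sensor of forebrain synapses, had 365.0, 295.0, 271.3 and 374.6 FPKM in the normal mice. In the HFD mice it had 388.1, 401.1, 399.8 and 383.1 FPKM. The diets did not overlap, but normal mice 1 and 4 lay near the HFD mice and normal mice 2 and 3 well below. The means were 326.5 ± 51.1 and 393.0 ± 8.83 FPKM (SD, n = 4), and the log2 fold change of 0.28 with an SE of 0.10 did not pass the threshold (limma, adjusted p = 0.0554). It passed without normal mouse 1 (0.34, limma adjusted p = 0.0327) or without normal mouse 4 (0.35, limma adjusted p = 0.0213).

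Syt2 showed the opposite pattern among the normal mice. Syt2 (ENSMUSG00000026452.15, chr1:134646677-134762593, plus strand) is the fast sensor of many hindbrain synapses and of parvalbumin interneurons. Its level was 10, 24.9, 28.4 and 11.5 FPKM in the normal mice and 10.3, 11.5, 16.2 and 9.6 FPKM in the HFD mice. Normal mice 2 and 3 stood above all others, and normal mice 1 and 4 lay among the HFD mice. The means were 18.7 ± 9.31 and 11.9 ± 2.97 FPKM (SD, n = 4), with a log2 fold change of -0.53 and an SE of 0.33 (limma, adjusted p = 0.239), which did not pass. Pvalb, the defining gene of those interneurons, had 50.1, 140.3, 145.8 and 60.5 FPKM in the normal mice and 33.4 to 55.6 FPKM in the HFD mice, and its list had 1 of 6 genes higher and 3 lower, with sums of 185.3 to 293.6 against 154.7 to 195.8 FPKM. Pvalb is also abundant in the cerebellum, and how much of Syt2 came from either source was not tested.

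Per 100 FPKM of Syt1 there were 2.74, 8.44, 10.5 and 3.07 FPKM of Syt2 in the normal mice and 2.51 to 4.05 FPKM in the HFD mice. Normal mice 2 and 3 stood apart from the other 6 mice, of which HFD mouse 3 was the highest. The coefficient of variation of Syt2 was 49.8% in normal mice and 25.0% in HFD mice, and that of Syt1 was 15.7% and 2.25%. Syt9, the relative that also serves fast release, followed Syt2 among the normal mice, with 3.9, 7.2, 8.2 and 4.1 FPKM against 2.5 to 2.9 FPKM in the HFD mice. Syt9 fell in HFD by a log2 change of -1.01 with an SE of 0.23 (limma, adjusted p = 0.00882). It stayed past the threshold without normal mice 2 and 3 (-0.55, limma adjusted p = 0.0125). It did not pass with the cerebellum markers (-0.11, limma adjusted p = 0.793) or the thalamus markers (-0.34, limma adjusted p = 0.309) as a covariate. With the striatum markers no gene passed, as described below.

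Syt5 was higher in HFD mice, with an adjusted p near the threshold. The gene has aspartate codons at all the loop positions marked above, and its protein takes part in calcium-dependent exocytosis. Syt5 (ENSMUSG00000004961.7, chr7:4539765-4547541, minus strand) had 59.1, 44.5, 38.9 and 60.8 FPKM in the normal mice and 72.1, 67.2, 64.2 and 64.7 FPKM in the HFD mice. The diets did not overlap, and as for Syt1 normal mice 2 and 3 were the lowest. The mean rose from 50.8 ± 10.8 to 67.1 ± 3.61 FPKM (SD, n = 4), with a log2 fold change of 0.42 and an SE of 0.13 (limma, adjusted p = 0.0348). Without the variance trend of the fit Syt5 did not pass (limma, all 8 mice, adjusted p = 0.0551). The call was lost without normal mouse 2 (limma, adjusted p = 0.0911) or 3 (0.0606), and without HFD mouse 1 (0.0864), 2 (0.0763), 3 (0.0588) or 4 (0.0593), while the log2 fold change stayed at 0.30 to 0.52 over the 8 fits that lacked 1 mouse.

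Syt3, which has high affinity for calcium and acts in receptor endocytosis and vesicle replenishment, lay between 18.7 and 20.8 FPKM in the normal mice and between 18.9 and 23.1 FPKM in the HFD mice. The diets overlapped almost fully, with a log2 fold change of 0.07 and an SE of 0.07 (limma, adjusted p = 0.507). It lies at chr7:44384102-44400187 on the plus strand and was, with Syt11, among the members whose normal mice 2 and 3 were closest to normal mice 1 and 4, with ratios of the means of 0.970 and 0.973.

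Syt4 and Syt11 share a serine codon at the first position of the loop, and neither passed the threshold. Syt4, an activity-regulated protein of dense-core vesicles, had 60.0, 68.1, 69.2 and 61.8 FPKM in the normal mice and 67.7, 71.2, 64.6 and 70.4 FPKM in the HFD mice, with a log2 fold change of 0.08 and an SE of 0.06 (limma, adjusted p = 0.303). Normal mice 2 and 3 lay among the HFD mice, and normal mice 1 and 4 below them. Syt11, which restrains endocytosis in neurons, had 157.3, 156.5, 147.7 and 155.3 FPKM in the normal mice and 163.7, 156.2, 163.8 and 164.3 FPKM in the HFD mice. Its diets overlapped through HFD mouse 2, and the log2 fold change was 0.07 with an SE of 0.04 (limma, adjusted p = 0.211). Syt11 lies at chr3:88744700-88775164 on the minus strand.

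Syt12 and Syt17, which lack a full set of aspartate codons in the loop, changed in opposite directions. Syt12 (ENSMUSG00000049303.10, chr19:4445908-4477447, minus strand), a vesicle protein that is phosphorylated by protein kinase A, had 14.2, 15.4, 17.5 and 14.1 FPKM in the normal mice and 10.6, 10.9, 13.6 and 10.4 FPKM in the HFD mice. The diets did not overlap, although HFD mouse 3 came within 1 FPKM of the lowest normal mouse. The mean fell from 15.3 ± 1.58 to 11.4 ± 1.5 FPKM (SD, n = 4), with a log2 fold change of -0.43 and an SE of 0.10 (limma, adjusted p = 0.0107). The gene A930001C03Rik on the opposite strand shares 950 exon bases with Syt12, and none of the sources used here says whether the counting used strand.

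Syt17 (ENSMUSG00000058420.8, chr7:118380717-118448222, minus strand), a synaptotagmin without a transmembrane segment that is found at the Golgi and other membranes, had 14.2, 11.7, 11.9 and 16.1 FPKM in the normal mice. In the HFD mice it had 18.6, 17.4, 17.4 and 22.5 FPKM. The diets did not overlap, and normal mouse 4 and HFD mouse 4 were the highest of their diets. HFD mouse 4 is also the HFD mouse with the high choroid plexus sum, whereas normal mouse 4 had the lowest such sum of its diet (344.8 FPKM). The part of the choroid plexus was not tested. The mean rose from 13.5 ± 2.09 to 19.0 ± 2.42 FPKM (SD, n = 4), with a log2 fold change of 0.50 and an SE of 0.12 (limma, adjusted p = 0.0115).

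Opposite-strand genes also share exon bases with Syt4 (Gm26658, 566 bases), Syt6 (Atg4a-ps, 505 bases) and Syt7 (Gm26859, 384 bases). The levels of these neighbours were not analysed here.

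The members were compared again with the mean log2 level of the cerebellum markers as a covariate. Normal mice 2 and 3, which stood apart in Syt1, Syt2, Syt5 and Syt9, had the highest sums of these markers. The covariate did not overlap between the diets, at 1.43 or more in the normal mice against 0.39 to 0.77 in the HFD mice. A call lost in this fit can thus not be assigned to the markers rather than to the diet. Syt6 and Syt7 passed, 2 of 10 members against 3.15% of all genes. Syt6 had a log2 fold change of -1.19 with an SE of 0.25 (limma, adjusted p = 0.0413) and Syt7 one of 0.49 with an SE of 0.10 (limma, adjusted p = 0.0432). Syt12 (-0.23, limma adjusted p = 0.446), Syt17 (0.25, limma adjusted p = 0.478) and Syt5 (-0.08, limma adjusted p = 0.762) no longer passed, and the sign of Syt5 turned. The values of Syt1 (-0.08) and Syt2 (0.74) turned as well, without passing in either fit. With the thalamus markers as the covariate the same members passed, 2 of 10 against 5.89% of all genes. The mean log2 level of the thalamus markers did not overlap between the diets, so the same limit holds for that fit.

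Leaving out normal mice 2 and 3 gave the same members without a covariate. Syt6 (-1.13, limma adjusted p = 0.00674) and Syt7 (0.45, limma adjusted p = 0.00586) passed, 2 of 10 against 19.6% of all genes. Syt5 (0.16, limma adjusted p = 0.0902), Syt17 (0.32, limma adjusted p = 0.0809) and Syt12 (-0.32, limma adjusted p = 0.0729) kept their direction and did not pass. For Syt2 the difference was then 0.12 with an SE of 0.19, and for Syt1 0.09 with an SE of 0.05. This fit rests on 2 normal mice.

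With the striatum markers as a covariate no gene passed, 0 of 10 members and 0% of all genes (limma), while 280 genes and 0 members had an unadjusted p below 0.05. The striatum markers do not overlap between the diets either, and their level and the diet can hardly be told apart. Syt6 kept its direction there (-1.37, SE 0.75), whereas the value of Syt7 turned (-0.11, SE 0.23).

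**Figure D2:**
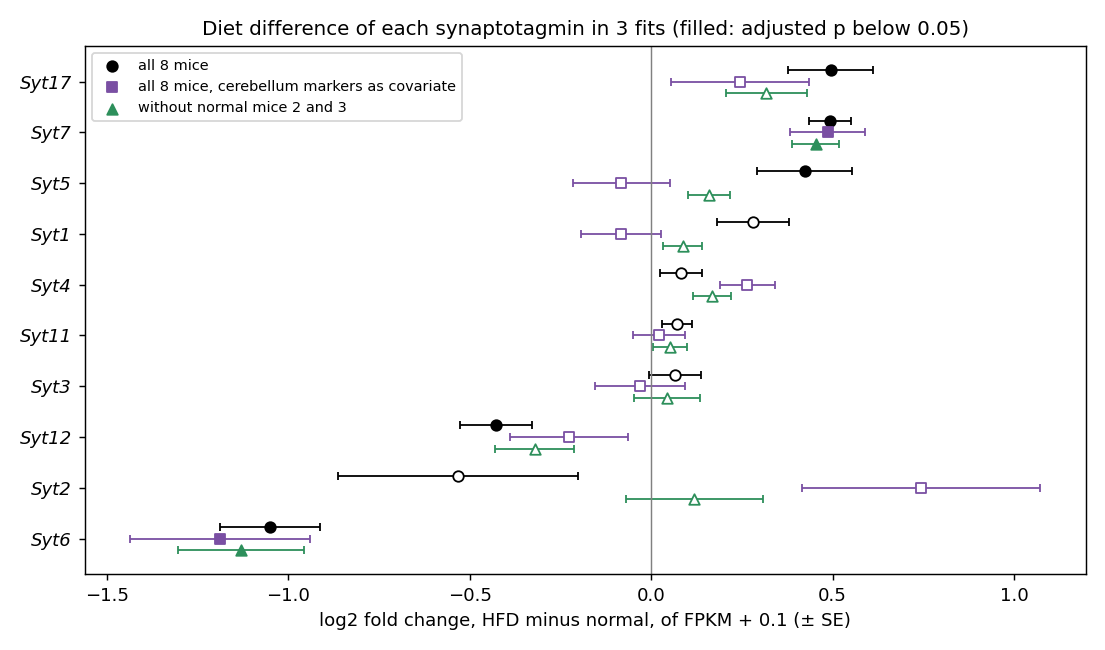
Log2 fold change (HFD minus normal, of FPKM + 0.1) of each synaptotagmin with its SE in limma fits over all 8 mice, over all 8 mice with the cerebellum markers as a covariate, and without normal mice 2 and 3. Filled symbols have an adjusted p below 0.05, and only Syt6 and Syt7 are filled in all 3 fits.

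The normal mice with the highest cerebellum marker sums were set beside the others for each member. The mean of normal mice 2 and 3 over that of normal mice 1 and 4 was 2.48 for Syt2, 1.93 for Syt9, 1.16 for Syt12 and 1.13 for Syt4. It was 0.696 for Syt5, 0.766 for Syt1 and 0.779 for Syt17. It was 0.896 for Syt6, about as far from 1 as for Syt4, and 0.945 for Syt7, 0.970 for Syt3 and 0.973 for Syt11. Markers of cortical projection neurons were also lowest in normal mice 2 and 3, at 281.7 and 264.5 FPKM against 375.0 and 401.9 FPKM in normal mice 1 and 4, and their part in the values of Syt1, Syt5 and Syt17 was not tested. Normal mouse 1 had a cerebellum marker sum within the range of the HFD mice (26.2 against 23.1 to 27.4 FPKM), and had 8.1 FPKM of Syt6 and 50.5 FPKM of Syt7. Its mean log2 level of the cerebellum markers was nevertheless above every HFD mouse (1.43 against 0.39 to 0.77). The same mouse was above every HFD mouse in striatum (470.6 FPKM), thalamus (52.1 FPKM) and oligodendrocyte marker sums (2715 FPKM). It was therefore not matched to the HFD mice in any of these markers.

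**Figure D3:**
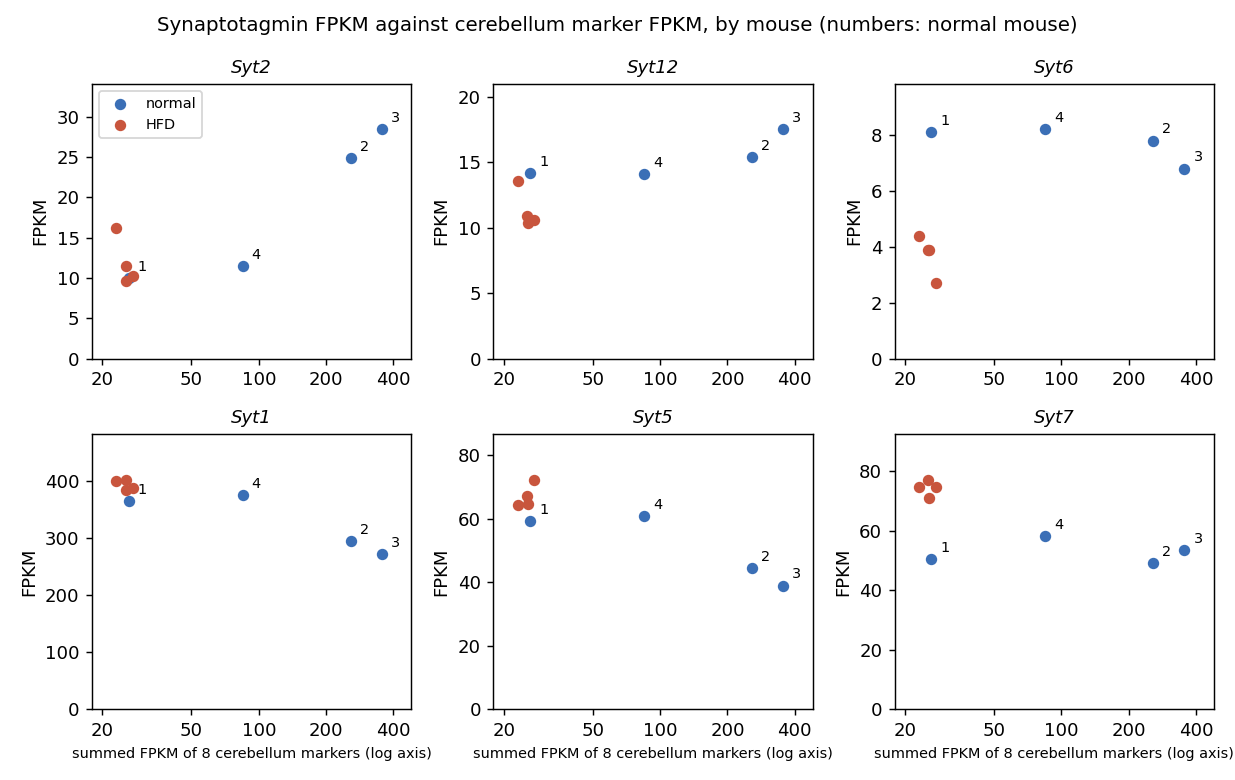
FPKM of synaptotagmins in each mouse against the summed FPKM of the cerebellum markers in the same mouse, on a log axis, with the mice of the normal diet and of HFD in different colors. Syt2 is highest and Syt1 and Syt5 are lowest in the 2 normal mice with the highest sums (257.1 and 354.9 FPKM), and the values of Syt6 and Syt7 do not overlap between the diets. Normal mouse 1 has a cerebellum sum like those of the HFD mice but a higher striatum sum (470.6 FPKM). Its mean log2 level of the cerebellum markers is also higher (1.43 against 0.39 to 0.77 in the HFD mice).

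The other numbered synaptotagmins with values numbered 5 of 7 (Syt9, Syt10, Syt13, Syt14 and Syt16), of which Syt13 rose, Syt9 fell and 3 did not pass. Syt13, which does not bind calcium, had a log2 fold change of 0.25 (limma, adjusted p = 0.0256). It did not pass with the cerebellum markers (0.07, limma adjusted p = 0.760) or the thalamus markers (0.10, limma adjusted p = 0.524) as a covariate. Nor did it pass without both normal mice 2 and 3 (0.14, limma adjusted p = 0.145). The call was also lost without normal mouse 2 (limma, adjusted p = 0.0661) or 3 (0.0541) and without HFD mouse 1 (0.0516), 2 (0.0595) or 3 (0.0651). Syt10, of the same dimer-forming subclass as Syt6, had 4.9 to 8.5 FPKM in the normal mice and 6.0 to 8.9 FPKM in the HFD mice, and its diets overlapped.

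Among other proteins with C2 domains that act on vesicles, 3 of 16 tested rose and 3 fell, shares close to the 17.7% and 15.3% of all genes, with a median log2 fold change of 0.07. Those past 1.5-fold were Doc2a, a high-affinity calcium sensor of spontaneous and asynchronous release, which rose (0.82, limma adjusted p = 0.00149), Sytl5, a Rab27 effector, which fell (-0.68, limma adjusted p = 0.00427), and Cadps2, a priming factor of dense-core vesicles, which fell (-0.61, limma adjusted p = 0.000903). Doc2a had 11, 8.0, 8.5 and 11.4 FPKM in the normal mice and 15.8 to 19.1 FPKM in the HFD mice, so that normal mice 2 and 3 were the lowest here too.

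Of the fusion machinery with which synaptotagmins act, 4 of 12 genes rose and none fell, against 17.7% and 15.3% of all genes, with a median log2 fold change of 0.16. Markers of cortical projection neurons also rose, in 5 of 6 genes as given above, and their part in this and the next 2 lists was not tested. Vamp2, the vesicle SNARE, passed 1.5-fold (0.66, limma adjusted p = 0.00195), with 86.1 to 117.7 FPKM in the normal mice and 141.4 to 173.1 FPKM in the HFD mice. Snap25, its partner on the plasma membrane, overlapped between the diets at 796.5 to 997.9 and 923.4 to 1163.4 FPKM.

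Of the other synaptic vesicle proteins, 8 of 14 rose and 3 fell, against 17.7% and 15.3% of all genes, with a median of 0.24. Slc17a7 belongs to this list and to that of the projection neuron markers. Syn1, which tethers vesicles, rose (0.90, limma adjusted p = 0.00237), while Sv2c (-0.82, limma adjusted p = 0.0012) and Synpr (-0.74, limma adjusted p = 0.00719) fell. Sv2c, a vesicle glycoprotein abundant in basal ganglia, had 7.0 to 9.0 FPKM in the normal mice and 4.0 to 5.3 FPKM in the HFD mice.

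Of the endocytosis proteins, which retrieve vesicle membrane after fusion, 4 of 9 rose and none fell, against the same shares of all genes. Their median was 0.10, and none was past 1.5-fold. The lowest p-values were those of Dnm1 (0.36, limma adjusted p = 0.00527), which cuts vesicles from the membrane, and Ap2a1 (0.27, limma adjusted p = 0.011), a subunit of the clathrin adaptor AP-2. The summed FPKM of the 10 members themselves was 759.2, 691.8, 664.7 and 779.2 in the normal mice and 818.7 to 841.6 in the HFD mice, of which Syt1 held 44.9% and 47.3% on average.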

How the data were processed

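The deposited FPKM values of 4 normal diet and 4 HFD cortexes were used, 1 library per mouse. The authors checked reads with FastQC, trimmed them with Trimmomatic, mapped them to mm10 with STAR and computed FPKM with Cuffnorm from the basic GENCODE M17 annotation (GRCm38.p6). Their tool versions are not given in the sources read here. FPKM is rounded to 0.1 and the depth per mouse is unknown. Sums of FPKM were 562431 to 639142. That the mice are separate animals comes from the study's description.

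The log2(FPKM + 0.1) values were fitted with limma 3.58.1 in R 4.3.3 (variance trend, two-sided, Benjamini-Hochberg adjustment over 13982 genes with a mean of at least 1 FPKM and no 0), with a threshold of 0.05. Such fold changes understate those of low genes. Covariates were mean log2 levels of marker lists. Positions and coding sequences came from GENCODE M21 on GRCm38, later than the authors' release, and were handled with Python 3.11.15 and Biopython 1.88. The procedure was tested on simulated data. The members, gene lists and marker lists were chosen with earlier results of these data known. All members were named, with Syt9, with the genes of each vesicle list past the threshold and 1.5-fold (otherwise the 2 lowest p) and with the 3 genes most correlated with each member past both; other values named, such as Pvalb, Snap25 and Syt10, were chosen after they were seen. Alternatives were another added constant, other filters and scalings, no variance trend, a replicate block, marker covariates and each mouse left out. Transcript estimates by Salmon were not used here.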

Additional observations from a re-analysis of the deposited data

Results flagged for a closer look

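In the 10 synaptotagmins and the other listed synaptotagmins, 30 groups of 4 mice were examined for a mouse far from the rest of its diet, and chance alone flags about 1 in 20 such groups. By Dixon's ratio of the gap to the range at the 95% level, 1 mouse stood apart in Syt11 and 1 in Syt12. Syt11 in HFD mouse 2 was 156.2 FPKM, against 163.7 to 164.3 FPKM in the other HFD mice, and lay inside the range of the normal mice. Syt12 in HFD mouse 3 was 13.6 FPKM, against 10.4 to 10.9 FPKM in the other HFD mice. Without that mouse the log2 fold change of Syt12 was -0.52 (limma, adjusted p = 0.00425).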

How the results depend on the processing

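Among 200 combinations of member and alternative, 170 kept the direction and side of the threshold. Another 19 lost the call and 3 gained it with the direction kept, and 8 turned in sign. Of those 8, Syt5 with the cerebellum covariate and Syt7 with the striatum covariate also lost the call. With all 8 mice 5 members passed, and 2 passed with the cerebellum or thalamus covariate or without normal mice 2 and 3 (chosen after seeing the data), 0 with the striatum covariate and 4 to 6 with each mouse left out. With quantile normalization 6 members passed, and 4 with no variance trend. The 1 member past 1.5-fold became 0 with the striatum covariate. Values that turned were Syt1 (-0.0820 with the cerebellum, -0.0026 with the thalamus covariate), Syt2 (0.74, 0.47, and 0.12 without normal mice 2 and 3), Syt3 (-0.0308) and Syt5 (-0.0816) with the cerebellum covariate, and Syt7 (-0.11) with the striatum covariate, and the cause was not tested. Over all genes, 4626 called became 440 (cerebellum), 824 (thalamus), 0 (striatum) and 2743 (without normal mice 2 and 3). The 997 past 1.5-fold became 240, 285, 0 and 604, 603 with log2(FPKM + 1) and 422 with a mean of at least 5 FPKM, where fewer genes were tested. Replicate numbers do not pair the mice (r of deviations -0.109 to -0.0275), and with the replicate block 5 members passed, 1 of them past 1.5-fold, among 3390 genes, and Syt13 did not (adjusted p = 0.0778). Rounding to 0.1 FPKM limits low genes, and depth is unknown.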
